A study of Homo sapiens with 2 samples.

Results

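Here 9 miRNAs known as products of blood cells or of the liver were followed in exosomes of an epithelial tumour cell line. They were chosen by name, as 9 of the 2549 human miRNAs on the array. The rule uses no measured value, but earlier results of these data were known when it was set. The 3 of erythroid origin are miR-451a, miR-486-5p and miR-144-3p, the 5 of leukocyte origin are miR-142-3p, miR-142-5p, miR-223-3p, miR-150-5p and miR-150-3p, and miR-122-5p is the abundant miRNA of hepatocytes. Of the 9, 7 (77.8%) were called detected on each of the 2 arrays, against 12.9% and 15.3% of all miRNAs. miR-451a gave intensities of 2233 and 2552 scanner units, the other 6 detected members stayed between 4.04 and 24.1 units, and both miR-142 arms were no brighter than the negative control spots.

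Exosomes are small vesicles that cells release, and the RNA came from exosomes of FaDu cells, a human line of hypopharyngeal squamous cell carcinoma. One array held RNA from cells given a control plasmid (oe-NC), and 1 array held RNA from cells given a plasmid for overexpression of HOTTIP, a long non-coding RNA transcribed from the end of the HOXA gene cluster (oe-HOTTIP). The sample labels speak of a plasmid lentivirus, whereas the methods describe plasmids introduced with a lipid reagent. The comparison asks how the miRNA content of the exosomes differed when HOTTIP was overexpressed. For culture of the cells the methods refer to the supplier's instructions, and a medium with fetal bovine serum is stated for exosome collection from macrophages. The serum used while FaDu exosomes were collected is not given in the sources used here, so the cells or serum from which a miRNA came cannot be told from these values.

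Each group had 1 array, so the differences have no replicate check and carry no p-value. The labels of each array also contradict themselves, because title and treatment name one group and the free-text description names the other. Titles were followed, so "the oe-NC array" and "the oe-HOTTIP array" mean the arrays with these titles. Should the descriptions be right instead, every direction below changes sign. HOTTIP has no probe on a miRNA array and could not be used as a check. The arrays shared 1 slide and 1 scan.

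As background, a miRNA is cut from a hairpin precursor and guides silencing proteins to messenger RNAs, chiefly through its seed, bases 2 to 8. miR-451a and miR-144-3p come from neighbouring hairpins that red cell precursors transcribe together, and miR-451a is matured by Argonaute 2 without the enzyme Dicer. miR-142 is made throughout the blood lineage, miR-223 mainly in myeloid cells and platelets, and miR-150 in mature lymphocytes. Red cells, platelets and liver are major sources of the miRNAs found in blood serum and plasma.

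RefSeq (GRCh38.p14) sequences were matched for 5 of the 9 members and are shown 5′ to 3′ because the probes of the array are named for these molecules. Capitals mark the seed.
hsa-miR-144-3p: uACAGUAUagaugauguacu
hsa-miR-122-5p: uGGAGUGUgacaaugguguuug
hsa-miR-142-3p: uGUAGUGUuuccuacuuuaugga
hsa-miR-142-5p: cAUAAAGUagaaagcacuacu
hsa-miR-223-3p: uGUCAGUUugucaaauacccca

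These 5 seeds all differ from each other. Of the 2248 miRNAs on the array with a matched sequence, 1 shared a seed with any of these 5, namely miR-5590-3p with the seed of miR-142-5p, and miR-5590-3p was detected on neither array. The hairpin of miR-144 is shown because its arms were read differently, with the 3p arm in capitals detected on both arrays and the 5p arm on neither.
MIR144: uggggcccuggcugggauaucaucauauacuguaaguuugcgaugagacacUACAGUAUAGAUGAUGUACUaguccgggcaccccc

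The hairpin MIR144 lies on the minus strand at chr17:28861533-28861618 and MIR451A at chr17:28861369-28861440, with 92 bases between them. MIR142 lies on the same chromosome at chr17:58331232-58331318, MIR122 at chr18:58451074-58451158, MIR150 at chr19:49500785-49500868 and MIR223 at chrX:66018870-66018979. RefSeq annotates each as a miRNA gene of its own, and overlap with exons or introns of other genes was not analysed here.

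A member's intensity is the background-subtracted brightness of its spots in scanner units, averaged over the spots of each probe and then over its probes, after spots marked as outliers by the scanner software were left out. The SD given with it is the spread over spots of 1 array, pooled within probes, and covers technical error only. Differences in brightness between the probes of a miRNA are left out of it, so the range of all spots can be much wider. Detection calls per miRNA are those of the scanner software. The background of each array was read from negative control spots, which match no miRNA. The 976 such spots on the oe-NC array averaged 3.87 ± 2.37 units and reached 10.7 at most, and the 975 on the oe-HOTTIP array averaged 3.45 ± 2.21 and reached 10.2. Their 95th percentiles were 7.69 and 7.28. For comparison, the arrays' own scale was 279.9 and 439 units, the 90th percentile of the 261 miRNAs that both arrays detected (10.2% of all), so most members lay near the dark end of each array.

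**Figure D1:**
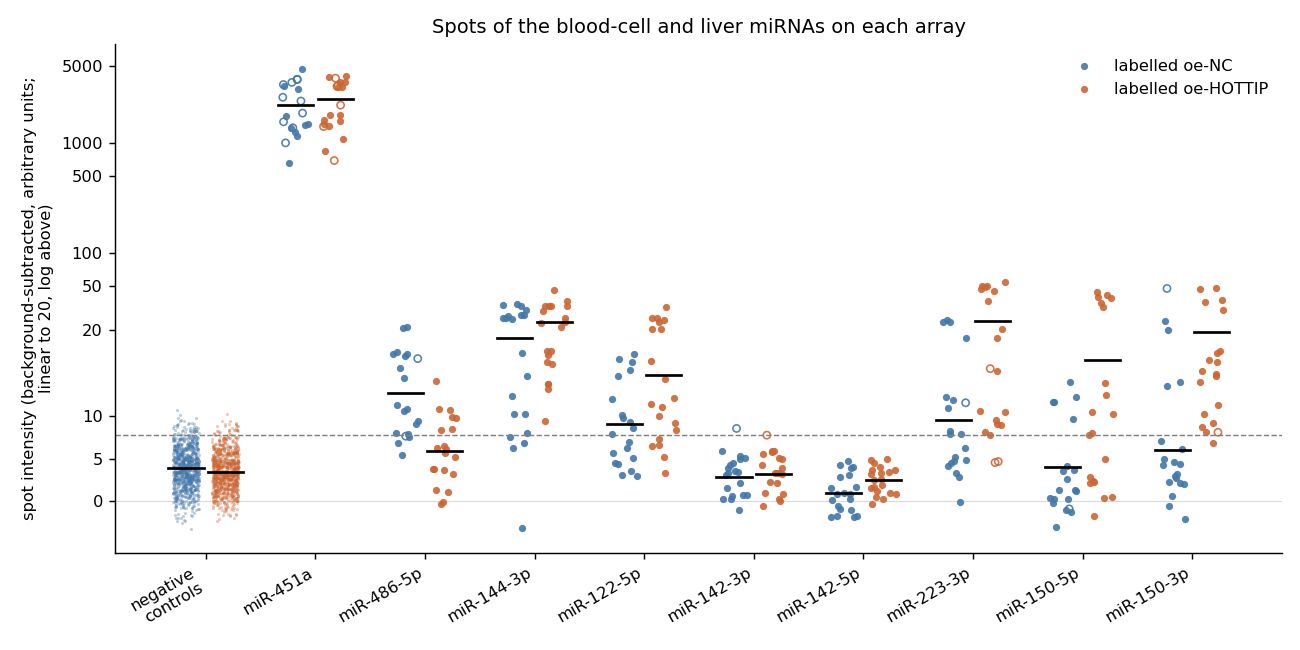
Intensity of every spot of the 9 members and of the negative controls on the oe-NC array (blue) and the oe-HOTTIP array (orange), in scanner units on an axis that is linear to 20 and logarithmic above. Open circles are spots marked as outliers and left out of the means (black bars), and the dashed line is the higher 95th percentile of the negative control spots, 7.69. The spots of miR-451a lie far above all others, and those of miR-142-3p and miR-142-5p lie among the negative controls.

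Among the erythroid members, miR-451a, the most abundant miRNA of mature red cells, measured 2233 ± 869 units on the oe-NC array (10 of its 20 spots used, 659 to 4753) and 2552 ± 346 on the oe-HOTTIP array (14 of 20 spots used, 854 to 4125). These means were 577 and 739 times the mean of the negative control spots. The ranges of its spots overlapped almost fully. Its 2 probes differed in brightness within each array, at 1283 and 3183 units on the oe-NC array and at 1465 and 3638 on the oe-HOTTIP array. The probe pairs thus kept nearly the same ratio between arrays. All spots left out were marked non-uniform within the spot, 10 on the oe-NC array and 6 on the oe-HOTTIP array, and no other miRNA had more such spots on either array. At least 1 non-uniform spot was found for 67 and 28 of all 2549 miRNAs. None of the spots on either array was saturated.

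miR-144-3p, which is processed from the same primary transcript as miR-451a, measured 19.0 ± 11.0 units on the oe-NC array (20 spots) and 23.7 ± 9.28 on the oe-HOTTIP array (20 spots). No negative control spot of either array reached these means. Single spots ran from -3.18 to 34.9 on the oe-NC array and from 9.40 to 46.1 on the oe-HOTTIP array, so the 2 sets of spots overlapped widely. The spot software placed 13 of 20 and 19 of 20 spots well above their local background.

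miR-486-5p, which accumulates with red cell maturation and lies within the ankyrin gene ANK1, measured 12.6 ± 2.60 units on the oe-NC array (18 spots) and 5.91 ± 2.69 on the oe-HOTTIP array (20 spots). On the oe-NC array no negative control spot reached its mean. On the oe-HOTTIP array 138 of 975 negative control spots did, and 1 of its 20 spots was well above background although the miRNA was called detected. Both probes were dimmer on the oe-HOTTIP array, at 3.03 against 8.40 units and at 8.78 against 16.9.

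The liver miRNA miR-122-5p measured 8.99 ± 3.75 units on the oe-NC array (20 spots) and 14.8 ± 4.71 on the oe-HOTTIP array (20 spots). On the oe-NC array 12 of 976 negative control spots were at or above this mean, and on the other array none was. The spots overlapped, from 2.94 to 17.2 units and from 3.26 to 32.2 units.

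The leukocyte members fell into a detected and an undetected set. miR-142-3p, which is shared by nearly all blood cells, measured 2.82 ± 1.80 units on the oe-NC array and 3.20 ± 2.13 on the oe-HOTTIP array, and miR-142-5p, from the other arm of that hairpin, measured 0.965 ± 2.25 and 2.45 ± 1.49. All 4 means were below the mean of the negative control spots of the same array, and none of their spots was well above background. They were among the 82.1% of all miRNAs detected on neither array, and no fold is given for them. At this signal over background their presence at a lower level was not detectable.

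miR-223-3p, a myeloid and platelet miRNA, measured 9.53 ± 5.86 units on the oe-NC array (19 spots) and 24.1 ± 11.7 on the oe-HOTTIP array (17 spots). Of 976 negative control spots, 4 reached the former mean, and none of 975 the latter. Spots ranged from -0.0539 to 24.8 and from 7.71 to 55.3 units, and so overlapped between the arrays. Each of its probes was brighter on the oe-HOTTIP array, at 9.16 against 4.51 units and at 39.0 against 14.5.

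The arms of the lymphocyte miRNA miR-150 were near background on one array and above it on the other. miR-150-5p measured 4.04 ± 2.28 units on the oe-NC array (19 spots), where 463 of 976 negative control spots were at or above it, and 16.6 ± 3.07 on the oe-HOTTIP array (20 spots), where none was. miR-150-3p measured 6.05 ± 4.60 units on the oe-NC array (19 spots, with 191 negative control spots at or above it) and 19.8 ± 4.18 on the oe-HOTTIP array (19 spots, with none). Both were called detected on both arrays, yet on the oe-NC array 4 of 19 spots of each were well above background. In each arm 1 probe read well above the others on both arrays. For miR-150-5p the brightest of 3 probes read 10.4 and 38.8 units on the arrays labelled oe-NC and oe-HOTTIP, while its dimmest read -0.657 and 1.25, below the mean of the negative controls on both. For miR-150-3p the brightest of 4 probes read 14.8 and 40.0 units, and the other 3 read 0.661 to 4.54 on the oe-NC array and 8.60 to 16.2 on the oe-HOTTIP array.

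**Figure D2:**
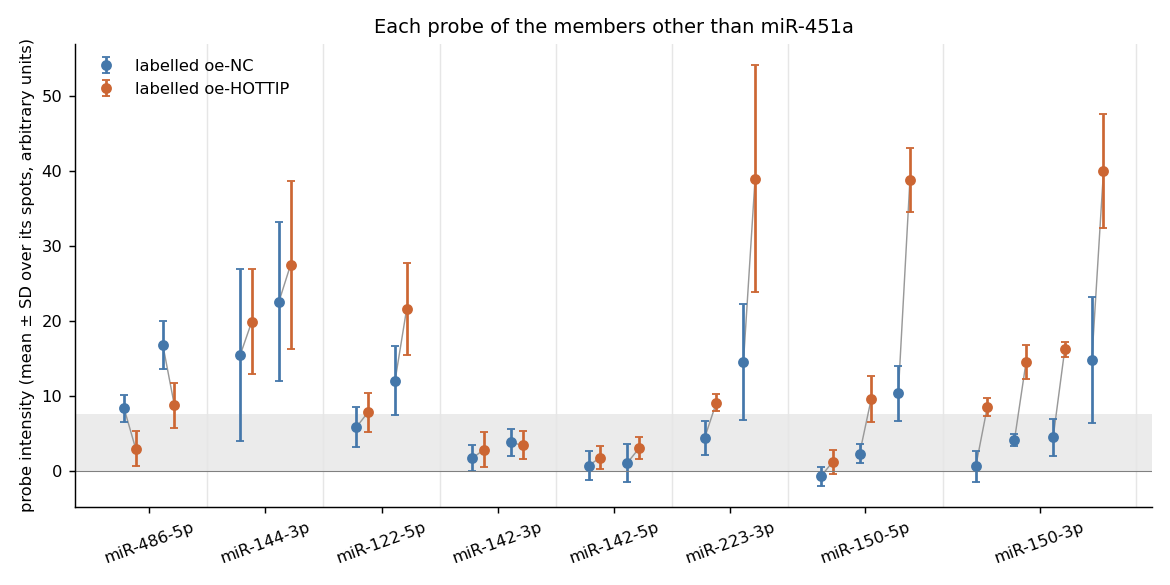
Intensity of each probe of the 8 members other than miR-451a, in scanner units on a linear axis, as mean ± SD over the spots used of that probe on the oe-NC array (blue) and on the oe-HOTTIP array (orange), with grey lines joining a probe's values. The shaded band ends at the higher 95th percentile of the negative control spots, 7.69. Both probes of miR-486-5p lie lower on the oe-HOTTIP array, every probe of miR-223-3p and miR-150 lies higher on it, and all probes of miR-142 stay within the band.

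How many members counted as detected turned on the rule. Of the 9, 5 on the oe-NC array and 6 on the oe-HOTTIP array had means above the 95th percentile of the negative control spots, against 10.2% and 13.7% of all miRNAs. Where over 50% of a miRNA's spots had to be well above background, the counts were 3 on the oe-NC array and 4 on the oe-HOTTIP array, against 7.96% and 9.57% of all miRNAs. With the mean of the negative control spots plus 3 SD as the limit, the counts were 3 and 6, against 8.63% and 11.5%. Of the 9 members, miR-451a and miR-144-3p passed all 4 of these rules on both arrays.

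For the comparison between groups, intensities were set relative to the 90th percentile of their array, taken over the miRNAs that both arrays detected, log2 was taken, and the threshold was the 2-fold named in the methods. Among the 7 members detected on both arrays, 1 passed the 2-fold threshold downward and 2 passed it upward on the oe-HOTTIP array, against 21.1% and 18.0% of all miRNAs detected on both. All 3 calls set a brighter value against one below the 95th percentile of its negative control spots. With such values raised to that percentile, a setting chosen after the data were seen, 1 member was at least 2-fold lower and none was higher, against 20.7% and 14.6% of the miRNAs detected on both. The remaining 4 members differed by less than 2-fold. The members' median log2 difference was 0.06, with a range of -1.75 to 1.38 and a median size of 0.69, beside a median of 0.02, a range of -4.04 to 4.24 and a median size of 0.70 over all 261. The median size of the members' differences was thus close to that of all miRNAs detected on both arrays. In the following, the spread of a difference combines the relative SDs over spots, pooled within probes, of both arrays on the log2 scale. It describes single spots, is wider than the error of the means, and grows where a mean is near background.

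The member that was lower was miR-486-5p, with a measured log2 difference of -1.75 (spread 0.72). Its dim value, on the oe-HOTTIP array, was not above the 95th percentile of the negative control spots. With that percentile in its place miR-486-5p was at least 2.72-fold lower, a bound that holds for the 90th percentile scaling only. Before scaling, its 12.6 units on the oe-NC array were under 2-fold above that percentile, 7.28. At each of the 18 spot positions left unmarked on both arrays it was dimmer on the oe-HOTTIP array, before and after scaling. The difference stayed below 0 under all 6 other scalings, from -1.92 to -1.10, and was under 2-fold (-0.73) by normexp, a background model, with an offset of 50.

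The members that were higher were the miR-150 arms, with measured log2 differences of 1.38 (spread 0.86) for miR-150-5p and 1.06 (spread 1.14) for miR-150-3p. Their values on the oe-NC array were not separated from the negative controls. With the 95th percentile of those spots in their place, and under the 90th percentile scaling, the arms were at least 1.37-fold and 1.64-fold higher, short of 2-fold. For miR-150-3p the difference was smaller than the spread over its spots. After scaling, 18 of 19 matched positions of miR-150-5p and 17 of 18 of miR-150-3p were brighter on the oe-HOTTIP array. Both differences stayed above 0 under the 6 other scalings, but were -0.30 and -0.29 by normexp with an offset of 50. That offset is larger than the intensity of every detected member except miR-451a and draws their values together. With it miR-144-3p, miR-122-5p and miR-223-3p were below 0 as well (-0.45, -0.44 and -0.31), so its sign cannot decide the direction of the arms. By normexp with no offset both fell short of 2-fold, at 0.46 and 0.40. miR-150-3p also fell short with the 90th percentile over all miRNAs (0.89), median scaling (0.93), quantile normalization (0.95), outlier spots kept (0.59) and the brightest probe (0.89). The study took its candidates, the miR-150 arms among them, from miRNAs that were lower in exosomes of HOTTIP-overexpressed cells. For these arms the direction given by the titles is thus opposite to the direction of the study. In its later luciferase assays the study reported that mimics of both arms lacked the trend it looked for.

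miR-223-3p had a difference of 0.69 on the log2 scale and a spread of 1.13, under 2-fold and within the spread over spots. It was above 0 under the 6 other scalings, from 0.51 to 1.34, and -0.31 by normexp with an offset of 50. It passed 2-fold without scaling (1.34), with the summed intensity per miRNA (1.08) and with the median of the spots (1.18). miR-122-5p differed by 0.06 (spread 0.76), its probes moved in opposite directions (-0.23 and 0.19), and its sign was kept under 3 of 6 other scalings. miR-144-3p differed by -0.33 (spread 1.01) and turned to 0.32 without scaling.

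miR-451a differed by -0.46 with a spread of 0.59, and its direction depended on how the arrays were brought to 1 scale. At the 7 spot positions unmarked on both arrays it was brighter on the oe-HOTTIP array at 4 before scaling and dimmer at all 7 after it. Without scaling, where the median difference of all miRNAs shifted by 0.65, the difference was 0.19. Under quantile normalization, which shifted that median by -0.14, it was 0.79. Which array held more miR-451a was therefore not settled by these values.

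**Figure D3:**
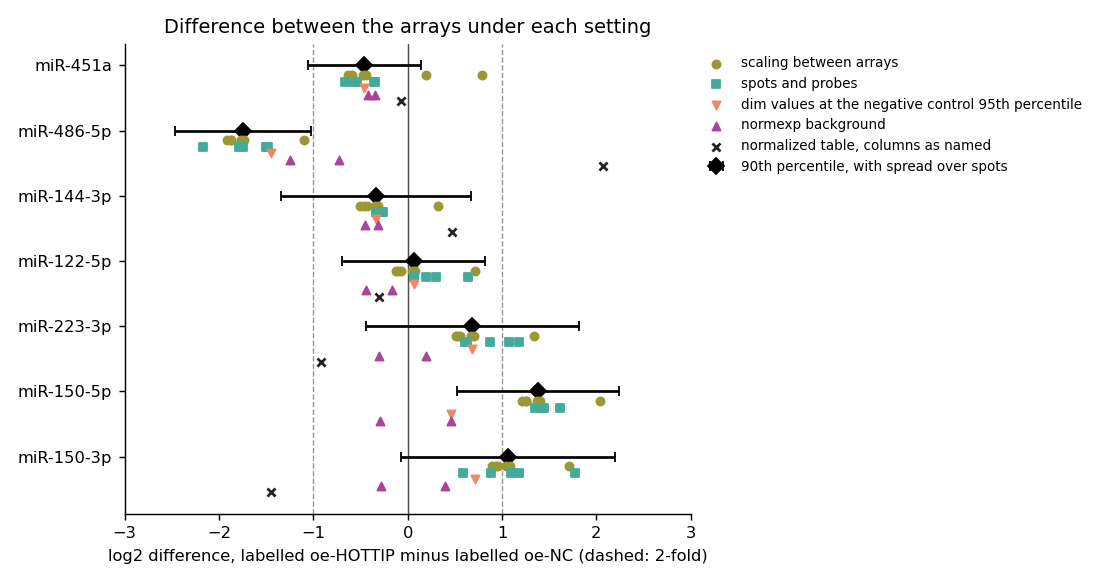
Log2 difference (oe-HOTTIP array minus oe-NC array) of the 7 members detected on both arrays, with the 90th percentile scaling as diamonds and the spread over spots as bars. Smaller symbols give the other settings by kind, and dashed lines mark 2-fold. For miR-150-5p the normalized table has no symbol because 1 of its values stands at the floor. miR-486-5p stays to the left of 0 under every setting from the scanner output, though normexp with an offset of 50 puts every member there. All other members have symbols on both sides. From the scanner output, miR-223-3p and the miR-150 arms fall below 0 only by normexp with an offset of 50.

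The columns of the authors' normalized log2 table carry sample identifiers, and group names were given to them here by the titles. Each column follows the scanner values of the opposite array. Over miRNAs above the table's floor and detected on the array, Spearman's rho was 1.00 with the opposite array in both cases. It was 0.77 and 0.76 with the array of the same sample. As named by the titles, the table reads miR-486-5p at 0.16 in oe-NC and 2.23 in oe-HOTTIP, miR-223-3p at 2.41 and 1.49, and miR-150-3p at 2.09 and 0.64. It puts miR-150-5p at 1.62 in oe-NC and at the floor in oe-HOTTIP. The table thus gives these 4 members the opposite direction from the scanner output under the titles. For the miR-150 arms the table as named has the direction of the study, which took them from miRNAs it found lower. Which labels are right was not tested. It puts miR-451a at 9.47 and 9.39, and both miR-142 arms at the floor in both columns.

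The context lists were read in the same way. None of the 5 other arms or neighbours of the members' hairpins (miR-486-3p, miR-144-5p, miR-451b, miR-122-3p and miR-223-5p) was detected on either array. Their means ran from -2.42 to 1.43 units on the oe-NC array and from -1.83 to 1.18 on the oe-HOTTIP array. miR-451b, whose hairpin lies inside the interval of MIR451A (chr17:28861371-28861438), read -0.660 ± 2.0 and -0.791 ± 2.23 units.

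Of 14 other miRNAs of blood cells, platelets and endothelium, such as the lymphoid, inflammatory and endothelial miRNAs, 1 was detected on the oe-NC array and 2 on the oe-HOTTIP array. The summed intensity of the 14 was 21.6 and 32.5 units. The one detected on both was the endothelial and platelet miRNA miR-126-3p, at 6.81 ± 3.17 and 11.0 ± 1.60 units, with a log2 difference of 0.04. The shares, 7.14% and 14.3%, lie near or below those of all miRNAs.

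Of 8 miRNAs that are rich in red cells but made by most cell types, 7 (87.5%) were detected on each array, against 12.9% and 15.3% of all miRNAs. One of them, miR-92a-3p of the miR-17-92 cluster, passed 2-fold, being lower on the oe-HOTTIP array, with 83.5 ± 7.03 against 45.8 ± 7.65 units and a log2 difference of -1.52. The others stayed under 2-fold, among them miR-185-5p with 0.38 and miR-15b-5p with -0.25. The list's median difference was -0.16. Of all miRNAs detected on both arrays, 21.1% were at least 2-fold lower on the oe-HOTTIP array.

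Of 17 miRNAs listed for muscle, brain or endocrine tissue, 3 (17.6%) were detected on the oe-NC array and 2 (11.8%) on the oe-HOTTIP array. Over all miRNAs the shares were 12.9% and 15.3%. Whether epithelial cells also make the listed miRNAs was not tested. The one detected on both was miR-128-3p, listed for brain, at 5.86 ± 2.10 and 12.6 ± 2.42 units and with a log2 difference of 0.46. Detection on 1 array alone was seen for the muscle miRNAs miR-133a-3p and miR-133b (oe-NC array) and miR-206 (oe-HOTTIP array), which were named after their values were seen. miR-206 measured 14.4 ± 2.78 units where it was detected and -1.11 ± 2.48 where it was not.

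The epithelial and squamous miRNAs, which check the labelled cell type, were detected for 6 of 9 on the oe-NC array and 7 of 9 on the oe-HOTTIP array. Over all miRNAs the shares were 12.9% and 15.3%. Their summed intensity was 1108 and 1610 units, most of it from miR-21-5p (577 and 970 units), which many cell types make, and from the squamous miR-205-5p (415 and 489.9 units), both named after their values were seen. Among those detected on both, miR-200b-3p, miR-200c-3p and miR-31-5p had the largest differences, -0.65, -0.64 and -0.62. These came almost wholly from the scaling, without which the median difference of all miRNAs shifted by 0.65. Unscaled, miR-200b-3p read 13.7 units on both arrays, and miR-31-5p 10.5 on the oe-NC array and 10.7 on the oe-HOTTIP array. miR-200c-3p, which holds epithelial identity by silencing the ZEB factors, measured 47.8 ± 11.0 and 48.2 ± 1.70 units. miR-429 and miR-203a-3p were detected on neither array. Most epithelial markers were thus detected by the scanner call, but with over 50% of spots well above background 3 of 9 were on the oe-NC array and 4 of 9 on the oe-HOTTIP array. By the scanner call the members reached 7 of 9 on each array, so this count does not set the epithelial list apart from them.

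**Figure D4:**
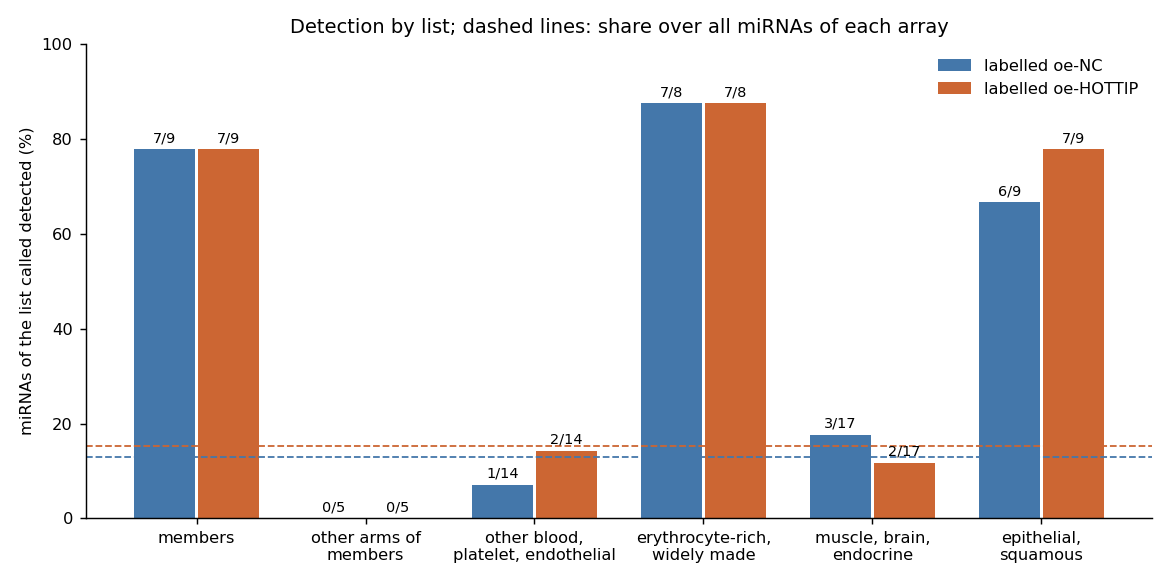
Share of the miRNAs of each list called detected on the oe-NC array (blue) and the oe-HOTTIP array (orange), in percent, with the counts above the bars. Dashed lines give the share over all 2549 miRNAs, 12.9% and 15.3%. The members, the red cell miRNAs made by most cells and the epithelial miRNAs stand above these lines on both arrays. The muscle, brain and endocrine list stands above its line on the oe-NC array (17.6%) and below it on the oe-HOTTIP array (11.8%). No other arm of the members' hairpins was detected.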

How the data were processed

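The miRNAs of exosomes from FaDu cells were measured on 1 one-colour Agilent array per group, each with 200 ng of RNA labelled with Cy3. The authors deposited the scanner output, with a background-subtracted intensity per spot, and a table of normalized log2 values (2570 rows) scaled, by the methods, to the 90th percentile in GeneSpring. The submitters' notes name Feature Extraction 10.10, and the file header has 11.5.1.1. Spots marked as outliers were left out, spots were averaged per probe and probes per miRNA, and scaling used the 90th percentile over miRNAs detected on both arrays. The normexp model of limma was planned on mean spot signals but was run on median spot and background signals. Its results thus differ from the main setting in the input signal as well as in the background model. No test between groups was run, the precision is limited by the number of arrays, and 24 alternatives were tried. All 9 members, every miRNA of lists of up to 6, and otherwise up to 3 of a list with the largest differences among those detected on both arrays were named. Members and lists were chosen with earlier results of these data known. Software was R 4.3.3 with limma 3.58.1, and Python 3.11.15 with pandas 2.3.3, numpy 2.4.6 and matplotlib 3.10.9.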

Additional observations from a re-analysis of the deposited data

How the results depend on the processing

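miR-486-5p was lower on the oe-HOTTIP array under all alternatives from the scanner output, from -2.17 to -0.73, the latter by normexp with an offset of 50. That offset put every member detected on both arrays below 0, so its sign cannot decide the direction of miR-486-5p either. The number of members at least 2-fold lower was 0 by that model and 2 in the normalized table as named. The number at least 2-fold higher was 1 with the 90th percentile over all miRNAs, the median or quantile scaling, outlier spots kept, the brightest probe, or the table as named, 0 by normexp with an offset of 50 or none and with dim values at the 95th percentile of the negative control spots, and 3 without scaling, with the summed intensity or with the median of the spots, where miR-223-3p passed 2-fold. By normexp with an offset of 50, miR-150-5p was -0.30 and miR-150-3p -0.29, but that offset draws dim values together and cannot decide their direction. miR-150-5p was 0.46 both with no offset and with dim values at the negative control percentile. miR-451a was 0.79 by quantile normalization and 0.19 without scaling. The table as named gave miR-486-5p 2.07, miR-150-3p -1.45 and miR-223-3p -0.92. With its columns exchanged, these turned back. Over all miRNAs, bounds included, 115 were at least 2-fold lower and 155 higher, against 63 and 223 without scaling, 26 and 8 by normexp with an offset of 50, and 84 and 53 with no offset. The cause was not tested.

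With over 50% of spots well above background, 3 members were detected on the oe-NC array and 4 on the oe-HOTTIP array, the other blood and endothelial list had 0 and 0, the muscle, brain and endocrine list 0 and 1, and the epithelial list 3 and 4. By the 95th percentile of the negative control spots, the other blood list had 0 and 1 and the muscle list 1 on the oe-NC array. By their mean plus 3 SD, 3 members, 0 of the other blood list and 0 of the muscle list were detected on the oe-NC array, and 1 of the other blood list on the oe-HOTTIP array. By the floor of the table as named, the other blood list had 2 and 1. The negative control percentile for dim values, the positions matched between arrays and the count without miR-451a were chosen after seeing the data, and the last 2 moved no count of members by over 1.5 times. No paired analysis was possible because there is 1 array per group, and leaving out replicates was not possible for the same reason. Signal over background limits the 6 dim members.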
